A study of Rattus norvegicus with 15 samples.

Results

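The change of the transcriptome between 12 h and 24 h was examined in rat brain microvascular endothelial cells (BMECs) exposed to 5 Gy of x-rays. The comparison used 6 of the 15 libraries of the series, chosen by their titles, with 3 libraries collected 12 h and 3 collected 24 h after exposure. The cells of all groups were primary cultures grown from the small cerebral vessels of Sprague-Dawley littermates of 2 to 3 weeks. The animals were of both sexes and without any genetic modification, and the irradiated cells were exposed at 60% confluence. The remaining groups held 3 libraries each of unexposed cells, labelled as cultured for 12 h, and, at the dose of 20 Gy, of cells from each of the same times. No unexposed cells of the later time were analysed here, so hours after exposure, hours in culture and any difference between the harvests cannot be told apart. The methods call the 3 libraries of a group biological replicates, but the labels do not tie a library to an animal or a separate isolation, so the p-values measure the spread between these libraries, which may in part be technical.

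Poly-A RNA was sequenced, and the expression of each transcript was given as FPKM, fragments scaled by transcript length and by the mapped total of the library. Each gene was given the sum over its transcripts, and 17895 genes with a mean of at least 0.5 FPKM over the 15 libraries were tested, out of 37367. Steps between low FPKM values gave a depth of about 6.5 to 6.8 gigabases of aligned sequence at 12 h and 5.4 to 6.8 gigabases at 24 h, where replicate 2 was the shallowest library. Across genes, log2(FPKM + 1) correlated at r = 0.965 to 0.975 among the 12 h libraries, 0.973 to 0.974 among the 24 h libraries and 0.888 to 0.895 between the times. The share of FPKM held by assembled transcripts without a gene name was 30.0% to 30.8% at 12 h and 33.3% to 33.8% at 24 h, and the share of the mitochondrial chromosome was 4.28% to 4.805% at 12 h and 3.43% to 3.66% at 24 h. Genes were also divided into 4 groups of equal number by the length of their leading transcript, and the median log2 change from 12 h to 24 h was -0.20 in the group of the shortest, -0.16 and -0.03 in the middle groups and 0.16 in the group of the longest. The part of these shifts in the results was not tested.

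Most defining markers of the labelled cell type were low or absent. Of 23 endothelial genes analysed, 16 were below the filter, and their sum was 16.8 to 28.4 FPKM at 12 h and 12.7 to 22.1 FPKM at 24 h. VE-cadherin (Cdh5), the adhesion molecule of endothelial junctions, did not exceed 0.0987 FPKM in any of the 6 libraries, von Willebrand factor (Vwf) did not exceed 0.0342 FPKM, and Tie1, Emcn, Robo4 and Sox17 were listed at 0. The VEGF receptor gene Kdr was at 0.636, 0.78 and 0.556 FPKM at 12 h and 0.36, 0.289 and 0.32 FPKM at 24 h. Other members were present, with Cd34 at 5.76, 7.82 and 10.7 FPKM at 12 h and 5.92, 7.90 and 3.51 FPKM at 24 h. Flt1 was at 3.90, 3.11 and 1.16 FPKM at 12 h and 2.92, 3.88 and 5.48 FPKM at 24 h. Across the 6 libraries, Egfl7 was at 1.40 to 2.56 FPKM and Eng at 0 to 12.0 FPKM. The summed FPKM of the fibroblast markers was 3062 to 4748 at 12 h and 2048 to 2786 at 24 h, and that of the pericyte markers was 106 to 128 and 76.2 to 90.3. Among the markers tested, 1 of 7 endothelial, 4 of 15 fibroblast, 2 of 7 pericyte, 2 of 7 astrocyte, 1 of 3 oligodendrocyte and 1 of 1 microglia genes fell and none of these rose, while 1 of 4 neuron genes rose and 1 fell, beside 17.1% higher and 19.3% lower of all genes tested. The cells are called BMECs here as they are labelled.

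Ionizing radiation breaks DNA, and the break signal reaches the transcription factor p53, which raises genes of arrest, repair and death, while cells that stop before mitosis lose the transcripts of the mitotic machinery. Other stress programmes leave their own marks. Heat shock factor raises the chaperones that refold proteins, the factor ATF4 raises genes of amino acid supply when translation is restrained, and kinase and cAMP signals raise immediate early genes, which are transcribed within minutes and decay quickly. The 2 times after 5 Gy were compared to see which of these functions changed at a constant dose.

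At 24 h, 3056 genes were higher than at 12 h (17.1% of the genes tested) and 3452 were lower (19.3%), by limma with a Benjamini-Hochberg adjusted p under 0.05 and at least 1.5-fold on the log2(FPKM + 1) scale. In all, 6508 genes were called (36.4%), and the median log2 change over the genes tested was -0.08. Among the called genes, 1445 rose and 1389 fell by at least 2-fold, and 68 rose and 33 fell by at least 8-fold. The groups of 3 libraries did not overlap for 11233 genes (62.8%). Against the control cells, which both of these comparisons share, 1779 genes differed at 12 h (9.94%), with 892 higher (4.98%) and 887 lower (4.96%), and 7395 differed at 24 h (41.3%), with 3674 higher (20.5%) and 3721 lower (20.8%). When transcripts without a gene name were left out of the sums, an alternative chosen after the values were seen, 11310 genes could be tested and 2919 were called, 1274 higher and 1645 lower. Loci without a gene name moved more often down than up, with 596 higher (12.4%) and 1117 lower (23.2%) of 4814.

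**Figure D1:**
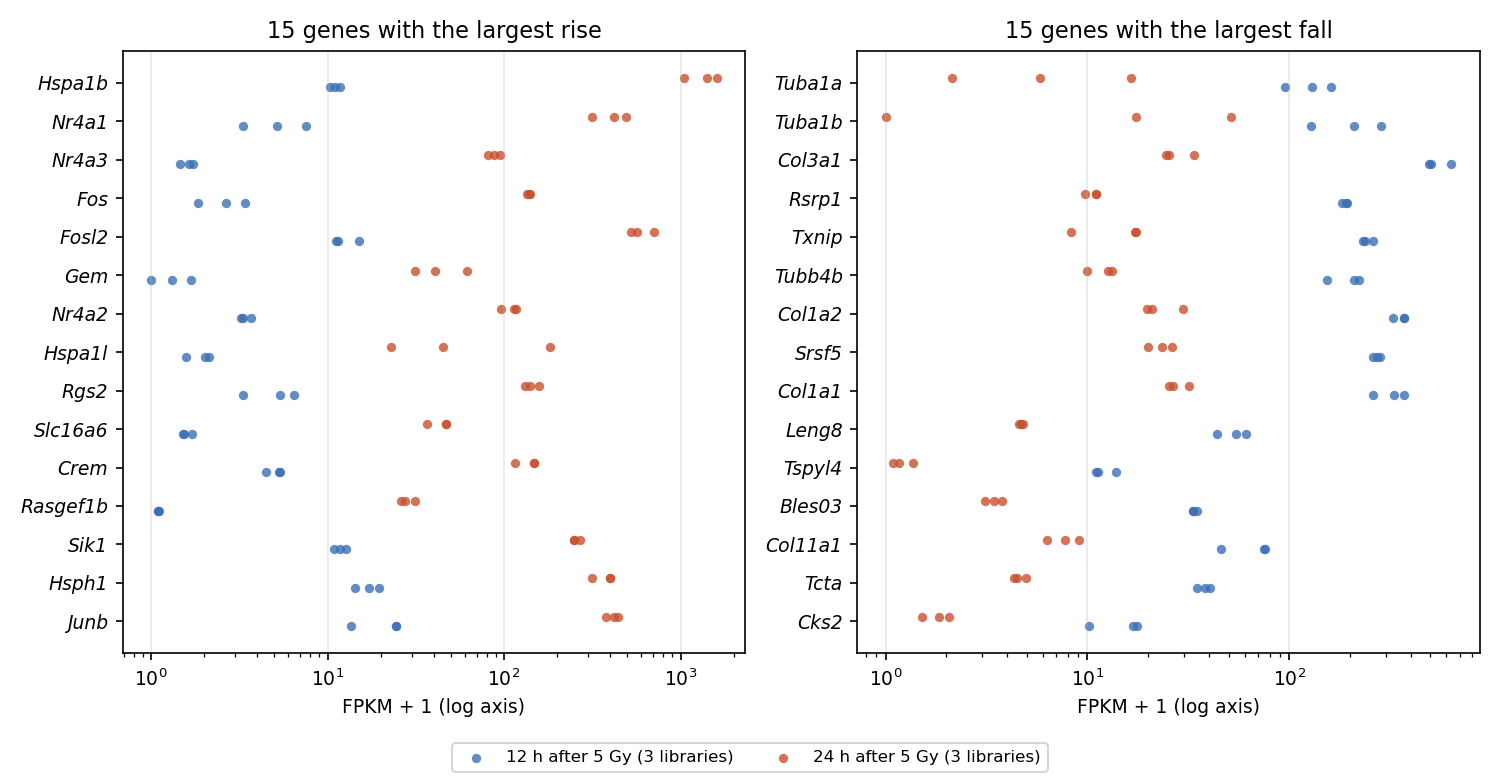
FPKM + 1 (log axis) of the 15 genes with the largest rise (left) and the largest fall (right) from 12 h to 24 h after 5 Gy, each point 1 library (blue 12 h, red 24 h, 3 libraries each). Only called genes with a symbol (locus identifiers left out), a mean of at least 5 FPKM over the 6 libraries and no overlap could enter. Heat shock, NR4A, AP-1 and cAMP-responsive genes fill most of the left panel, and tubulin, collagen and splicing genes most of the right.

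The genes with the largest rise belonged mainly to immediate early and cAMP-responsive genes, and a smaller part to the heat shock response. Those with the largest fall belonged mainly to tubulins, collagens and RNA processing. Hspa1b, the stress-inducible HSP70 chaperone, rose by the most among genes whose name is not a locus identifier, and Nr4a1, an orphan nuclear receptor of the immediate early class, came next. Tuba1a, an alpha-tubulin, and Col3a1, a chain of fibrillar collagen, were among the deepest falls. The lists of genes by function are described below in order of their roles, each against the shares of 17.1% higher and 19.3% lower over all genes tested. A count from an alternative has its own background. From annotated transcripts only, 1274 of 11310 genes were higher and 1645 lower. By the transcript with the highest mean, 2190 of 17670 genes were higher and 2994 lower. After rescaling to the same sum, 3516 of 17895 genes were higher and 2982 lower.

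**Figure D2:**
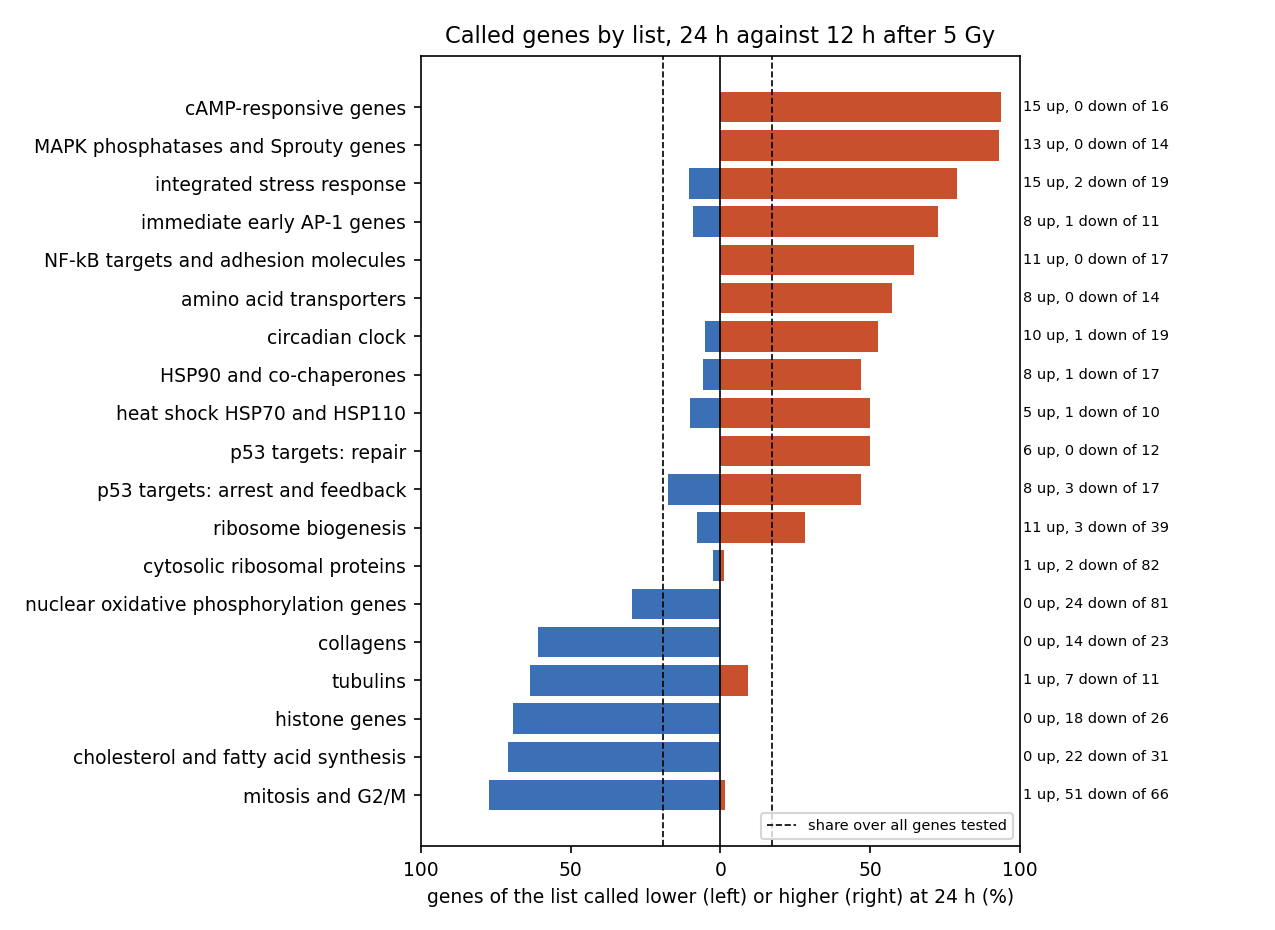
Percent of the tested genes of 19 lists called higher (red, right) or lower (blue, left) at 24 h than at 12 h after 5 Gy, with the counts at the right and the shares over all genes tested as dashed lines (17.1% higher, 19.3% lower). The cAMP-responsive, MAPK phosphatase and integrated stress response lists lie furthest to the right, and mitosis, cholesterol synthesis and histone genes furthest to the left. The cAMP-responsive, amino acid transporter and tubulin lists were added after the values were seen, so their place is no independent evidence.

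The heat shock response uses HSP70 and HSP110 proteins, J-domain proteins that deliver clients to them, HSP90, and small heat shock proteins with their BAG partners. Heat shock factor binds inverted repeats of the unit GAA in the promoters of these genes. The windows of the HSP110 gene Hsph1 and the J-domain gene Dnajb1 are shown because both genes rose and hold such repeats close to the start of transcription. Each window spans 250 bases before and 50 bases after the start site in the RefSeq annotation of GRCr8, and capitals mark the repeats named here for each gene, a 3-unit repeat made of TTCNNGAA and GAANNTTC with a shared GAA in Hsph1 (chr12:10427118-10427417, plus strand) and GAANNTTC in Dnajb1 (chr19:41431092-41431391, minus strand).
Hsph1: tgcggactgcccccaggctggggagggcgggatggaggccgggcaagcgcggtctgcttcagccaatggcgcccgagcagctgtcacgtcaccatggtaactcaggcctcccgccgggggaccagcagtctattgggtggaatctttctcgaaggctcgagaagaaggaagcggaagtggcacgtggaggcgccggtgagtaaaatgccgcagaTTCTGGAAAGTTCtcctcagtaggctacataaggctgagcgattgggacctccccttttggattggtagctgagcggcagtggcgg
Dnajb1: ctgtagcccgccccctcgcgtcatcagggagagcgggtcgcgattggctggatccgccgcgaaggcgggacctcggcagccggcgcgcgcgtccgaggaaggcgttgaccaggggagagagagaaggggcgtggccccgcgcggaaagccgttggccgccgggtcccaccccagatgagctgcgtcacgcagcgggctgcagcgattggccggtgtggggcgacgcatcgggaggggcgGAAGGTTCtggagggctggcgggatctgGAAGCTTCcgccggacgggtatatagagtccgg
The 3-unit repeat, TTCNNGAA and GAANNTTC with a shared GAA, searched on both strands, was in the windows of 3 of 65 genes of the HSP70, HSP90, small heat shock and DNAJ lists (4.62%) and of 46 of all 8977 genes with a window (0.512%). The 2-unit repeat, GAANNTTC or TTCNNGAA, of which the 3-unit repeat contains both forms, was in 18 of the 65 (27.7%) and in 1081 of all (12.0%). Among all genes with a window, the 3-unit repeat was in 0.557% of those called higher at 24 h and 0.529% of those called lower. For the 2-unit repeat these shares were 11.8% and 12.2%.

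Hspa1b (chr20:4877324-4879779 in Rnor_6.0, minus strand) was at 10.7, 9.28 and 9.99 FPKM in the 3 libraries at 12 h and at 1607, 1412 and 1044 FPKM at 24 h. All libraries at 24 h lay far above those at 12 h, whose levels were close to those of the control cells (11.1, 11.03 and 9.15 FPKM). The log2 change was 6.92 (SE 0.14, adjusted p = 5.8e-12). The near-identical copy LOC108348108 changed by 6.93 in the same way, and reads could be divided between these copies, so the level of each is uncertain. Hsph1 (chr12:6322668-6341902, minus strand), an HSP110 that exchanges the nucleotide of HSP70, was at 13.3, 16.2 and 18.4 FPKM at 12 h and 396, 396 and 315 FPKM at 24 h. The lowest 24 h library exceeded the highest 12 h library many times over, and the log2 change was 4.45 (SE 0.15, adjusted p = 4.5e-10). Dnajb1, a J-domain protein that loads clients onto HSP70, rose from 26.3, 25.4 and 27.9 FPKM to 135, 152 and 128 FPKM, a log2 change of 2.34 (SE 0.11, adjusted p = 6.1e-09).

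The rise covered part of the chaperone network. The shares of DNAJ genes and of chaperonin and prefoldin genes that rose were near the 17.1% of all genes tested. Of 10 HSP70 and HSP110 genes tested, 5 rose and 1 fell, with a median log2 change of 0.49. By the transcript with the highest mean 2 of the 10 rose, and from annotated transcripts only 3 of 9. Of 17 genes of HSP90 and its co-chaperones, 8 rose and 1 fell (median 0.68), or 5 rose by the transcript with the highest mean. The stress-inducible HSP90 gene Hsp90aa1 went from 83.1, 84.7 and 70.6 FPKM to 284, 313 and 227 FPKM (log2 change 1.77, SE 0.16, adjusted p = 1.4e-06), and the more abundant Hsp90ab1 by 1.47 (adjusted p = 7.8e-08). Fkbp5, an HSP90 co-chaperone that responds to glucocorticoids, was the member that fell, by 1.09 on the log2 scale. Of 39 DNAJ genes, 8 rose and 5 fell (median 0.15), or 3 fell without 12 h replicate 3 or without 24 h replicate 1. Of 16 chaperonin and prefoldin genes 2 rose and 1 fell (median 0.04), and 4 rose after rescaling to the same sum. Hspd1, the mitochondrial chaperonin HSP60, was one of those that rose, with 45.7, 62.0 and 49.4 FPKM at 12 h and 284, 289 and 224 FPKM at 24 h (log2 change 2.32, SE 0.17, adjusted p = 3.1e-07).

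Small heat shock proteins and their partners moved in both directions, with 5 of 15 higher and 4 lower (median -0.09). Leaving out 24 h replicate 1 gave 2 lower, and the transcript with the highest mean gave 3 higher. Bag3, which couples HSP70 to autophagy, was at 30.8, 35.0 and 37.3 FPKM at 12 h and 113, 124 and 89.7 FPKM at 24 h, so that the times did not overlap (log2 change 1.63, SE 0.13, adjusted p = 4.0e-07). Hspb1, the ubiquitous small heat shock protein HSP27, was at 47.6, 38.4 and 21.1 FPKM and 90.7, 139.9 and 100.2 FPKM (log2 change 1.65, SE 0.27, adjusted p = 0.00018). Hspb6, a small heat shock protein of muscle, fell by 1.53, and Hsbp1, a negative regulator of heat shock factor, by 1.30. Hsf1, the main heat shock factor, did not pass the test, with a log2 change of 0.32 (adjusted p = 0.055). The sum of Hspa1l, an HSP70 gene beside Hspa1b, rose to 44.3, 181 and 21.9 FPKM, but 0.024% of it came from its annotated transcripts, and the transcript with the highest mean changed by -0.03.

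Genes of the endoplasmic reticulum response rose at a share near the 17.1% of all genes tested, and few of them fell. Of 25 genes of ER stress and the unfolded protein response, 5 rose and 1 fell, with a median of -0.03. At a fold of at least 2, 1 of the 25 rose, beside 1445 of all 17895 genes. The ER chaperone Hspa5 was at 347, 374 and 193 FPKM at 12 h and 227, 304 and 301 FPKM at 24 h, with overlap between the times (log2 change -0.09, adjusted p = 0.78). Herpud1, which serves the degradation of ER proteins, rose by 1.90 (SE 0.11, adjusted p = 3.7e-08). Of 37 proteasome subunits, none rose and 3 fell (median -0.15).

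Immediate early genes of the AP-1 family, whose products bind DNA as FOS and JUN dimers, were higher at 24 h, with 8 of 11 higher and 1 lower (median 1.19). Fos (chr6:109300433-109303299, plus strand) was at 2.43, 1.67 and 0.839 FPKM at 12 h and 134, 139.5 and 137 FPKM at 24 h. The 24 h libraries were nearly equal to each other and far above the 12 h libraries (log2 change 5.75, SE 0.24, adjusted p = 2.7e-09). Junb was at 23.6, 23.6 and 12.6 FPKM and 439, 420.3 and 379 FPKM, with replicate 3 the lowest at 12 h (log2 change 4.36, SE 0.21, adjusted p = 8.9e-09). Jun itself (chr5:114011189-114014277, minus strand) rose less, from 8.58, 7.29 and 6.82 FPKM to 18.7, 18.5 and 18.4 FPKM, which stayed below the control cells at 22.3, 20.9 and 24.3 FPKM (log2 change from 12 h 1.19, SE 0.15, adjusted p = 2.7e-05). Jund, a JUN protein that is often high in resting cells, was the member that fell, by 1.56 on the log2 scale, and the uncalled members were Fosl1 at -0.01 and Batf at 0.11. The sum of Fosl2 rose by 5.57, but only 5.61% of it came from annotated transcripts, which alone changed by 2.23 and did not pass the test.

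Of 19 EGR, NR4A and KLF genes, 6 rose and 1 fell (median 0.07), so the immediate early class was divided. All 3 NR4A receptors rose. Nr4a1 (chr7:142905758-142920216, plus strand) was at 6.56, 4.16 and 2.31 FPKM at 12 h and 487, 419.9 and 314 FPKM at 24 h (log2 change 6.31, SE 0.29, adjusted p = 6.1e-09), Nr4a3 rose by 5.78 and Nr4a2 by 5.00. In the control cells Nr4a1 was at 33.6, 36.6 and 38.6 FPKM, between the 2 times. Klf4, a zinc finger factor of the vessel wall and epithelia, went from 53.02, 54.4 and 58.1 FPKM to 594, 544 and 500.1 FPKM (log2 change 3.28, adjusted p = 9.9e-10). Egr1, a zinc finger factor that commonly accompanies Fos, had 11.3, 7.46 and 2.86 FPKM at 12 h and 1.86, 2.26 and 2.78 FPKM at 24 h. Its groups did not overlap and its values were lower at 24 h, but the log2 change of -1.17 did not pass the test (SE 0.56, adjusted p = 0.097).

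A list of cAMP-responsive genes, added after the values were seen and therefore no independent evidence of its direction, shares Fos, Fosb, Junb and the NR4A genes with the lists above. It held 15 risers among 16 genes tested, with a median of 4.40. The promoters of such genes can bind CREB at the palindrome TGACGTCA. A promoter window of Crem, whose short isoforms repress CREB targets, and one of Dusp1, the phosphatase that inactivates stress kinases, are shown because both genes rose and carry the palindrome, which is in capitals. The coordinates in GRCr8 are chr17:58985240-58985539 on the plus strand for Crem and chr10:17184603-17184902 on the plus strand for Dusp1.
Crem: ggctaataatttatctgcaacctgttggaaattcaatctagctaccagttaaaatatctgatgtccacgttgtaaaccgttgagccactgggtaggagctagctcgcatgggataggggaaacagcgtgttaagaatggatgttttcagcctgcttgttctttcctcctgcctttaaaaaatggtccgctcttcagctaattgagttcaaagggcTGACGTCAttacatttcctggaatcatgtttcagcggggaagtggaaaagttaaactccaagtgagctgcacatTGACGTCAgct
Dusp1: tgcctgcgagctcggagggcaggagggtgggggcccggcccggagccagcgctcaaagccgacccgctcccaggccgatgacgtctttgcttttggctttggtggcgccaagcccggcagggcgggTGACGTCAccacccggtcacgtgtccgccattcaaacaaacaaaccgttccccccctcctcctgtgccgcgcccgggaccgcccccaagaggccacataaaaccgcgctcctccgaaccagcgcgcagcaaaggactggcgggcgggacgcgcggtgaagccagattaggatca
The palindrome was in the windows of 2 of 13 genes of this list (15.4%) and of 298 of the 8977 genes with a window (3.32%). It was in 3.9% of all genes called higher at 24 h and 3.31% of those called lower.

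Crem (chr17:57031766-57090888 in Rnor_6.0, plus strand) was at 4.40, 4.29 and 3.48 FPKM at 12 h and 147, 148 and 115 FPKM at 24 h. No 24 h library came near the 12 h range, and the log2 change was 4.76 (SE 0.20, adjusted p = 2.1e-09). Sik1, a kinase that CREB induces and that restrains CREB co-activators, went from 9.82, 10.7 and 11.7 FPKM to 270.1, 249 and 248 FPKM (log2 change 4.45, SE 0.09, adjusted p = 6.8e-12). Gem (chr5:25349928-25353661, plus strand), a small GTPase that blocks calcium channels, was at 0.684, 0.32 and 0 FPKM at 12 h and 39.7, 30.3 and 60.8 FPKM at 24 h. One 12 h library was listed at 0, and all 24 h libraries were above all 12 h libraries (log2 change 5.04, SE 0.34, adjusted p = 1.2e-07). Rgs2, which switches off G protein alpha subunits, rose by 4.88. Outside the list, the carrier gene Slc16a6 rose by 4.77. Rasgef1b, an exchange factor for small GTPases, had the sum 26.4, 30.2 and 24.9 FPKM at 24 h, but its annotated transcripts held 0% of it. The phosphodiesterase gene Pde4b was the uncalled member, at -0.40 (adjusted p = 0.5).

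Feedback inhibitors of the MAP kinase cascade rose almost as a whole, with 13 of 14 dual-specificity phosphatase, Sprouty and Spred genes higher and none lower (median 1.80). Dusp1 was at 104, 83.5 and 89.7 FPKM at 12 h and 2070.2, 1661 and 1655 FPKM at 24 h, with no overlap (log2 change 4.27, SE 0.14, adjusted p = 2.9e-10). Dusp5, which acts on ERK in the nucleus, rose by 2.76 (SE 0.23, adjusted p = 6.8e-07), and Dusp10, which acts on JNK and p38, by 2.37 (SE 0.15, adjusted p = 7.4e-08). Dusp6, the phosphatase of cytoplasmic ERK, was the member that did not pass, with 23.4, 13.7 and 3.76 FPKM at 12 h and 14.7, 16.0 and 23.0 FPKM at 24 h. Its 12 h libraries spanned the whole 24 h range (log2 change 0.64, adjusted p = 0.32).

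In the integrated stress response, kinases that sense amino acid lack, unfolded proteins or other stress restrain translation, and the factor ATF4 then raises genes of amino acid supply. Of 19 such genes tested, 15 rose and 2 fell, with a median log2 change of 1.67. The promoter window of Trib3, a pseudokinase that feeds back on ATF4, is shown because this gene rose the most and holds the ATF4 element, in capitals (TGATGNAA read on the opposite strand, chr3:161275484-161275783 in GRCr8, minus strand).
Trib3: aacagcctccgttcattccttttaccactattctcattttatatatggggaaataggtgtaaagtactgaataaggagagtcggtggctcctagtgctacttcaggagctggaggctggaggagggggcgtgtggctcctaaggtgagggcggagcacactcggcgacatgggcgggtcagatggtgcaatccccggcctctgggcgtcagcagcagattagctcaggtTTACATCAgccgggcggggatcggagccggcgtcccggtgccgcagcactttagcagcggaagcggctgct
The element was in the windows of 3 of 18 genes of the list (16.7%) and of 184 of all 8977 (2.05%). It was in 2.95% of all genes called higher at 24 h and 1.59% of those called lower. Trib3 (chr3:147813473-147819571 in Rnor_6.0, minus strand) was at 0.268, 0.288 and 0.397 FPKM at 12 h and 14.6, 23.0 and 30.1 FPKM at 24 h (log2 change 4.11, SE 0.23, adjusted p = 3.4e-08). Chac1, which degrades glutathione, went from 1.18, 0.98 and 0.679 FPKM to 7.11, 12.8 and 17.5 FPKM, with replicate 3 the highest at 24 h for both genes (log2 change 2.72, SE 0.26, adjusted p = 2.4e-06). Ddit3, the factor CHOP, was at 5.23, 8.88 and 6.22 FPKM and 32.9, 48.2 and 61.6 FPKM (log2 change 2.63, adjusted p = 2.7e-06).

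The mitochondrial folate enzyme Mthfd2 rose by 3.31 (SE 0.18, adjusted p = 2.4e-08). Atf4 itself, which is controlled chiefly at translation, rose by 0.97, and Nupr1, a small chromatin protein of this response, fell by 0.99 on the log2 scale. Of 14 amino acid transporters, 8 rose and none fell (median 0.67), or 5 rose by the transcript with the highest mean, and of 17 aminoacyl-tRNA synthetases 7 rose and 1 fell (median 0.46). Both lists were added after the values were seen. Slc7a5, the light chain of the carrier of large neutral amino acids, was at 5.94, 5.99 and 8.51 FPKM at 12 h and 45.4, 53.1 and 57.1 FPKM at 24 h (log2 change 2.77, SE 0.15, adjusted p = 2.3e-08), and its heavy chain Slc3a2 rose by 1.74 (adjusted p = 3.0e-08). Of 25 NRF2 antioxidant genes, 6 rose and 1 fell (median 0.18), among them Hmox1, which degrades haem, with 63.8, 69.9 and 53.5 FPKM and 277, 248 and 237 FPKM (log2 change 2.01, adjusted p = 1.8e-08).

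**Figure D3:**
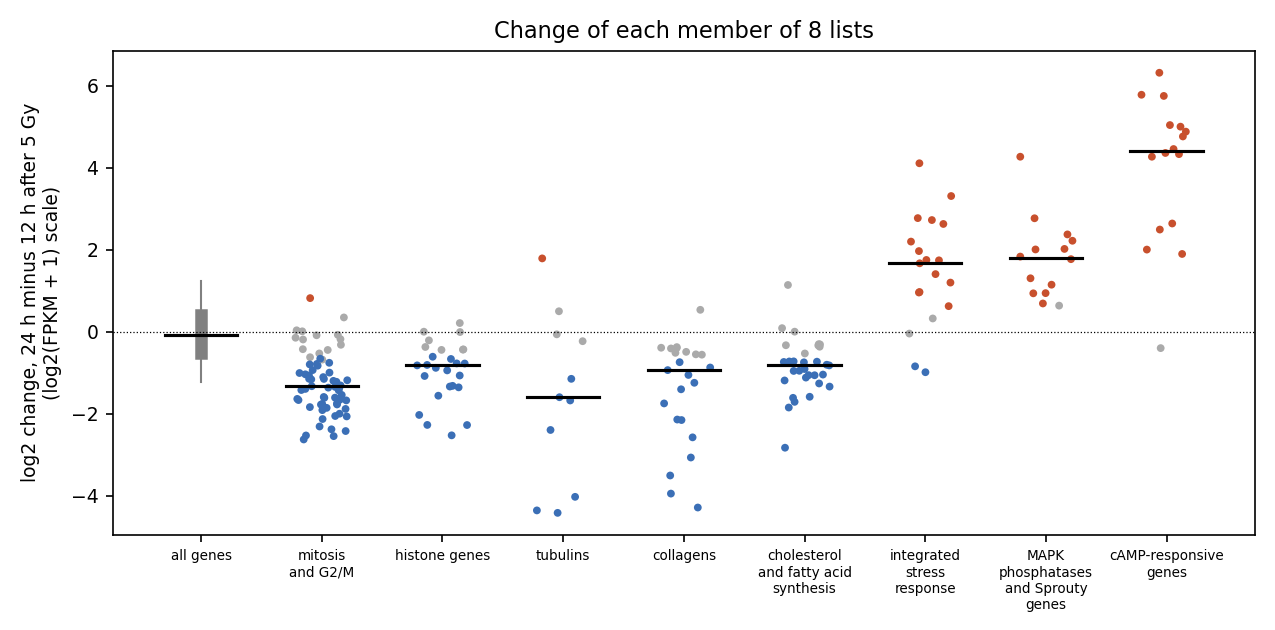
Log2 change from 12 h to 24 h after 5 Gy of every tested member of 8 lists (points, red called higher, blue called lower, grey not called) with the median as a black line, beside all genes tested (grey bars, 5th to 95th and 25th to 75th percentile). The medians run from -1.32 for mitosis genes and -1.60 for tubulins to 1.67 for the integrated stress response and 4.40 for cAMP-responsive genes, against -0.08 for all genes. The tubulin and cAMP-responsive lists were added after the values were seen, so their place at the ends is no independent evidence.

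The lists named for p53 held more rises than falls, with 8 of 17 arrest and feedback genes higher and 3 lower (median 0.43). Of 12 repair genes, 6 rose and none fell (median 0.56), and of 13 death genes 4 rose and none fell (median 0.43). These lists are wider than the direct targets of p53. They hold Cdkn2a, at -0.98, and the death genes Casp8 and Tnfrsf1a, at 0.74 and 0.84. The rise of the death gene Eda2r was not called from annotated transcripts only or by the transcript with the highest mean. Mdm2, the ubiquitin ligase that removes p53, was at 67.7, 62.7 and 52.8 FPKM at 12 h and 179, 202 and 222 FPKM at 24 h, without overlap (log2 change 1.71, SE 0.17, adjusted p = 3.0e-06). Plk3, a stress kinase, rose by 3.92 (SE 0.20, adjusted p = 1.2e-08), and Ppm1d, a phosphatase that ends the damage signal, by 1.84 (SE 0.09, adjusted p = 1.4e-08). Cdkn1a, the inhibitor p21 that defines this list, was at 189, 171 and 410.2 FPKM and 475, 247 and 281 FPKM. Its groups overlapped and the log2 change of 0.43 did not pass the test (SE 0.33, adjusted p = 0.29), while all 6 libraries were above the control cells at 52.1, 31.6 and 56.8 FPKM.

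The Gadd45 genes, adaptors of stress kinases and DNA demethylation, all rose. Gadd45g went from 20.9, 22.1 and 15.1 FPKM to 352, 417 and 398 FPKM (log2 change 4.27, SE 0.17, adjusted p = 1.6e-09). Gadd45b rose by 3.95 and Gadd45a, the member best known as a p53 target, by 2.12 (adjusted p = 0.00031). Among death genes, the receptor Fas went from 17.3, 18.1 and 21.4 FPKM to 46.4, 46.3 and 44.0 FPKM (log2 change 1.23, adjusted p = 1.8e-07), and Bax, which permeabilizes the mitochondrial membrane, was at 0.18 and did not pass the test (adjusted p = 0.15). In the BCL2 family, 1 of 12 genes rose and 3 fell.

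Transcripts of mitosis fell further from 12 h to 24 h, with 51 of 66 genes of mitosis and G2/M lower and 1 higher (median -1.32), and 31 of 53 lower from annotated transcripts only. The list had been lower than in the control cells already at 12 h (median -0.99, all genes 0.03), in a comparison that shares the 12 h libraries. Many of these genes carry the cell cycle homology region TTTGAA, at which the DREAM complex holds them silent in resting or arrested cells. Windows of Top2a, the topoisomerase of chromosome condensation, and Birc5, the survivin of the chromosomal passenger complex, are shown because both fell and hold this motif, in capitals as TTTGAA or, read from the other strand, TTCAAA. The windows are chr10:84473044-84473343 on the minus strand for Top2a and chr10:103571896-103572195 on the plus strand for Birc5, in GRCr8.
Top2a: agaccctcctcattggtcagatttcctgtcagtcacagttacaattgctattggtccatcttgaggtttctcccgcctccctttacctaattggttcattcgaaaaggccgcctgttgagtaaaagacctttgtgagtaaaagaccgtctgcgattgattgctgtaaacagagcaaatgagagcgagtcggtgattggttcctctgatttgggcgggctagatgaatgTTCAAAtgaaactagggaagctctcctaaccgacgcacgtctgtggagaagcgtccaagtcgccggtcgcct
Birc5: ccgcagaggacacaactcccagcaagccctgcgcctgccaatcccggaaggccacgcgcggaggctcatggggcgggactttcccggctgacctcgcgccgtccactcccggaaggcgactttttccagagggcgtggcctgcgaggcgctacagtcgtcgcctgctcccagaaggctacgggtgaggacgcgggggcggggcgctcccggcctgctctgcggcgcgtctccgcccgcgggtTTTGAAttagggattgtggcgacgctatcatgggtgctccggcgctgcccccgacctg
On both strands together, the motif was in 36 of 55 mitosis genes with a window (65.5%) and in 1089 of all 8977 (12.1%). It was in 14.4% of all genes called lower at 24 h and 11.3% of those called higher. Of the 36 mitosis genes with the motif, 31 fell (86.1%, median log2 change -1.51), and of the 19 without it 12 fell (63.2%, median -0.83). The difference between these shares was not tested.

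Ube2c, the ubiquitin-conjugating enzyme of the anaphase-promoting complex, was at 20.2, 20.5 and 13.7 FPKM at 12 h and 1.46, 2.21 and 2.60 FPKM at 24 h. The groups did not overlap, and the log2 change was -2.63 (SE 0.31, adjusted p = 1.5e-05). Top2a was at 10.9, 13.1 and 8.58 FPKM and 0.962, 1.17 and 0.904 FPKM (log2 change -2.55, SE 0.25, adjusted p = 2.9e-06). Ccna2, a cyclin of S phase and mitotic entry, fell by 2.42 on the log2 scale, and the kinase subunit Cks2, with 15.8, 16.7 and 9.12 FPKM and 0.519, 1.07 and 0.847 FPKM, by 3.00. Psrc1, a microtubule protein that is also a p53 target, was the riser, from 6.39, 6.49 and 8.79 FPKM to 13.2, 13.2 and 13.7 FPKM (log2 change 0.82, adjusted p = 0.0001). In bulk RNA, fewer cycling cells and less of these transcripts per cell cannot be told apart.

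Genes of DNA replication and S phase moved far less between the times, with 6 of 56 higher and 10 lower (median -0.11). From annotated transcripts only, 0 of 48 were higher and 6 lower, and by the transcript with the highest mean 2 of 56 were higher. This list had been lower than in the control cells at 12 h (median -1.24). Rrm2, a subunit of ribonucleotide reductase, fell from 7.99, 9.53 and 5.04 FPKM to 1.04, 1.16 and 1.72 FPKM (log2 change -1.86, adjusted p = 0.0007). Of 26 genes of homologous recombination and the Fanconi pathway, none rose and 7 fell (median -0.29). From annotated transcripts only 4 of 16 fell, and by the transcript with the highest mean 4 of 24. With a pseudocount of 0.1, 11 of 26 fell, beside 4068 of all 17895 genes. Of 23 genes of break sensing and end joining, 5 rose and 1 fell (median 0.11). From annotated transcripts only 2 of 22 of these rose, and by the transcript with the highest mean 3 of 23. Of 26 histone genes, none rose and 18 fell (median -0.82). The linker histone gene Hist1h1c was at 148, 132 and 127 FPKM at 12 h and 30.9, 18.2 and 20.7 FPKM at 24 h (log2 change -2.53, SE 0.19, adjusted p = 2.8e-07), and H2afx, the variant that marks breaks when phosphorylated, fell by 2.28 (adjusted p = 6.7e-09). Most replication-dependent histone messages end without a poly-A tail, so a poly-A library holds only part of them.

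Tubulin genes, a list added after the values were seen, were lower in 7 of 11 cases and higher in 1 (median -1.60). Tuba1a (chr7:140637287-140640953, minus strand) was at 160.0, 128 and 93.7 FPKM at 12 h and 4.79, 1.13 and 15.3 FPKM at 24 h, a wide spread at a low level (log2 change -4.42, SE 0.53, adjusted p = 1.6e-05). Tuba1b, with 127, 284 and 209 FPKM and 16.4, 0 and 50.4 FPKM, shares most of its coding sequence with Tuba1a, so the division of reads between them is uncertain. Tubb4b, a beta-tubulin, was at 222, 209 and 153 FPKM and 8.89, 11.7 and 12.3 FPKM, without overlap (log2 change -4.03, SE 0.24, adjusted p = 3.9e-08). Tuba4a was the riser, at 1.79 (adjusted p = 0.0038).

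Collagens fell, with 14 of 23 genes lower and none higher (median -0.94), and 6 of 17 lower from annotated transcripts only. Col3a1 (chr9:52023295-52059217, plus strand), the single chain of type III collagen, was at 489.7, 501 and 634 FPKM at 12 h and 32.8, 23.5 and 24.5 FPKM at 24 h, and every 24 h library was far below every 12 h library (log2 change -4.29, SE 0.21, adjusted p = 1.2e-08). Col1a1, a chain of type I collagen, went from 367, 329 and 260.1 FPKM to 31.0, 24.4 and 25.7 FPKM (log2 change -3.51, SE 0.17, adjusted p = 1.0e-08). Its partner Col1a2 changed by -3.95, but 0.254% of its sum came from annotated transcripts, which alone changed by -0.86 and did not pass. Col4a1, a chain of the basement membrane of vessels, fell by 1.25. Col1a1, Col1a2 and Col3a1 are also among the fibroblast markers, of which 4 of 15 fell and none rose, and the part of a change in cell composition in these values was not tested.

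Other matrix genes were divided, with 8 of 31 proteases and inhibitors higher and 4 lower (median -0.09), or 2 lower without 24 h replicate 2. Adamts1, a protease that cleaves proteoglycans, rose from 7.69, 6.23 and 3.41 FPKM to 31.1, 42.4 and 57.2 FPKM (log2 change 2.73, adjusted p = 3.5e-05). Timp1, an inhibitor of these proteases, was at 105, 77.8 and 51.4 FPKM and 0.298, 0.239 and 53.8 FPKM. Replicate 3 at 24 h lay within the 12 h range while the other two were near 0, and the call (adjusted p = 0.034) was lost when any 1 of the other 5 libraries was left out (limma adjusted p 0.053 to 0.13).

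RNA processing genes held several of the deepest falls without a shift of the class. Of 20 SR splicing factors and CLK kinases, 5 rose and 5 fell (median 0.22). Rsrp1, an arginine and serine rich protein, was at 181, 192 and 191 FPKM at 12 h and 10.0, 10.0 and 8.68 FPKM at 24 h (log2 change -4.16, SE 0.16, adjusted p = 1.3e-09), and the splicing factor Srsf5 at 271, 281 and 258 FPKM and 22.5, 18.8 and 25.1 FPKM (log2 change -3.56, SE 0.13, adjusted p = 5.8e-10). Leng8 fell by 3.49 and Pnisr, a protein of nuclear speckles, by 2.94, while Clk1, a kinase that phosphorylates SR proteins, rose by 1.14. Of 17 genes of nuclear speckles and retained introns, a list added after the values were seen, 1 rose and 7 fell (median -0.41). Txnip, an inhibitor of thioredoxin and glucose uptake, fell from 236, 258 and 231 FPKM to 7.31, 16.5 and 16.2 FPKM (log2 change -4.16, SE 0.39, adjusted p = 2.1e-06). Tspyl4, Bles03 and Tcta, at -3.32, -3.31 and -3.05, completed the 15 deepest falls among genes without overlap.

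Genes of lipid synthesis fell, with 22 of 31 genes of cholesterol and fatty acid synthesis lower and none higher (median -0.82), on top of a median of -0.96 at 12 h against the control cells. Fasn, the fatty acid synthase, was at 47.0, 42.4 and 43.4 FPKM at 12 h and 5.50, 4.41 and 6.34 FPKM at 24 h, without overlap (log2 change -2.83, SE 0.15, adjusted p = 2.3e-08). Hmgcs1, which makes the substrate of the sterol pathway, went from 53.6, 46.8 and 35.1 FPKM to 9.93, 11.3 and 14.1 FPKM (log2 change -1.85, adjusted p = 4.2e-05), and Srebf2, the factor that raises the pathway, fell by 0.91. The sterol element TCACNCCAC, searched on both strands, was in 0 of 21 windows of the list and in 105 of all 8977 (1.17%).

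Of 81 nuclear genes of oxidative phosphorylation, none rose and 24 fell (median -0.49). After rescaling to the same sum, 15 of the 81 fell, beside 2982 of all 17895 genes. Uqcrfs1, the iron-sulphur subunit of complex III, was at 103, 101.3 and 105 FPKM at 12 h and 34.9, 38.1 and 37.5 FPKM at 24 h (log2 change -1.46, SE 0.08, adjusted p = 1.5e-08). Of 11 mitochondrially encoded transcripts, none rose and 3 fell, among them Mt-nd5 with 547, 597 and 577 FPKM and 243, 247 and 221 FPKM (log2 change -1.27, adjusted p = 7.7e-06). Glycolysis and hypoxia genes moved in both directions, with 6 of 31 higher and 8 lower, or 5 lower after rescaling to the same sum. Pfkfb3, which makes the activator of glycolysis, rose by 2.85 and the hexokinase Hk2 by 2.17 (adjusted p = 9.0e-06), while Adm, the hypoxia-induced vasodilator adrenomedullin, fell from 46.5, 43.3 and 45.5 FPKM to 11.7, 12.0 and 11.1 FPKM (log2 change -1.87, adjusted p = 2.7e-08).

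Few genes of the translation machinery were called. Of 82 cytosolic ribosomal protein genes, 1 rose and 2 fell (median -0.15), and of 56 translation factors 7 rose and 2 fell (median -0.01). Ribosome biogenesis, which prepares ribosomal RNA in the nucleolus, was higher in 11 of 39 genes and lower in 3 (median 0.43), with 7 higher by the transcript with the highest mean. Autophagy and lysosome genes were higher in 6 of 34 and lower in 5 (median -0.10).

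Among genes of the vessel wall, 3 of 11 blood-brain barrier genes rose and 2 fell (median -0.12). Neither fall was called without 24 h replicate 2, after rescaling to the same sum or by the transcript with the highest mean. Foxq1, a forkhead factor of the brain endothelium, was at 0.272, 0 and 0.0829 FPKM at 12 h and 4.62, 7.42 and 5.17 FPKM at 24 h (log2 change 2.58, SE 0.30, adjusted p = 1.3e-05). Of 16 genes of smooth muscle and serum response factor, 1 rose and 3 fell (median -0.18), with 3 higher without 24 h replicate 2 and 5 lower without 12 h replicate 3. The matricellular gene Ccn1 was the riser, from 13.9, 10.99 and 6.36 FPKM to 83.6, 112 and 71.8 FPKM (log2 change 3.02, adjusted p = 1.9e-06), and its relative Ccn2 fell by 1.03. Of 14 vasoactive genes, 2 rose and 3 fell, and of 7 gap junction and pannexin genes 2 rose and 2 fell. Gja1, the connexin 43 gene, was at 605, 739 and 1146 FPKM at 12 h and 415, 374 and 350.4 FPKM at 24 h, with no overlap (log2 change -1.08, adjusted p = 0.0012).

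Of 17 genes of NF-kB signalling, 11 rose and none fell (median 1.07), and from annotated transcripts only 6 of 13 rose. Tnfaip3, the deubiquitinase that ends the signal, went from 1.12, 1.03 and 1.14 FPKM to 13.2, 10.2 and 10.9 FPKM (log2 change 2.56, adjusted p = 8.4e-08), although only 3.08% of its sum came from annotated transcripts. Ptgs2, the inducible cyclooxygenase, was at 1.86, 0.977 and 0.46 FPKM and 8.56, 7.88 and 6.28 FPKM (log2 change 2.08, SE 0.30, adjusted p = 7.2e-05), and the inhibitor Nfkbia rose by 1.32. Among 10 chemokines and receptors, 2 rose and 2 fell, with Cxcl1, which draws neutrophils, at 0.384, 0.191 and 0.172 FPKM and 6.37, 7.10 and 7.28 FPKM (log2 change 2.67, adjusted p = 8.8e-08). Of 14 genes of the IL6 family and C/EBP, 6 rose and 1 fell (median 0.51), with 3 of 10 higher from annotated transcripts only, and Socs3, the feedback inhibitor of this signal, rose by 2.41 (adjusted p = 4.4e-05). Of 19 interferon response genes, 3 were higher and 6 lower (median -0.43), and after rescaling to the same sum 3 were lower. The ubiquitin-like Isg15 fell from 5.997, 4.49 and 6.13 FPKM to 0.632, 0.915 and 1.19 FPKM (log2 change -1.77, adjusted p = 7.8e-07).

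Among developmental pathways, 6 of 12 Notch genes rose and 2 fell (median 0.61), and the Notch target Hes1, a transcriptional repressor, was at 2.21, 2.07 and 2.43 FPKM at 12 h and 54.1, 50.2 and 28.7 FPKM at 24 h (log2 change 3.76, SE 0.25, adjusted p = 1.2e-07). Of 30 TGF-beta, BMP and GDF genes, 10 rose and 1 fell (median 0.30), with 3 lower without 12 h replicate 3 and 5 higher by the transcript with the highest mean, and Smad1, the transducer of BMP signals, went from 11.3, 10.97 and 11.9 FPKM to 94.1, 99.2 and 91.5 FPKM (log2 change 2.95, SE 0.07, adjusted p = 2.8e-11). Of 31 Wnt genes, 7 were higher and 9 lower, and 2 were higher by the transcript with the highest mean. Of 19 clock genes, 10 rose and 1 fell (median 0.76), with 5 of 18 higher from annotated transcripts only, and Rora, the activator of Bmal1, rose by 2.33 (SE 0.16, adjusted p = 1.7e-07) and Bhlhe41, a repressor of the clock, by 1.92 (adjusted p = 2.9e-07).

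Store-operated calcium entry, in which STIM proteins sense empty stores and open ORAI channels, was the subject of the study, and 1 of its 15 genes rose and 5 fell (median -0.06). Orai2 was at 5.06, 5.36 and 6.31 FPKM at 12 h and 5.78, 6.02 and 6.10 FPKM at 24 h, with overlap, and its log2 change of 0.09 did not pass the test (SE 0.10, adjusted p = 0.51). Orai3 was lower, with 4.19, 6.88 and 9.08 FPKM and 1.91, 1.34 and 2.58 FPKM (log2 change -1.36, SE 0.27, adjusted p = 0.00084). Orai1 had 8.34, 1.90 and 10.7 FPKM and 17.7, 9.11 and 8.28 FPKM, with overlap (log2 change 0.82, adjusted p = 0.32). Among the sensors, Stim2 rose from 16.5, 18.6 and 23.6 FPKM to 37.3, 34.3 and 28.9 FPKM (log2 change 0.75, SE 0.15, adjusted p = 0.0011). Stim1 was at 48.4, 70.0 and 63.3 FPKM and 41.7, 38.5 and 39.1 FPKM, a log2 change of -0.58 that missed the fold of 1.5 (adjusted p = 0.028) and was called with a pseudocount of 0.1 or without replicate 1 of either time. The store channel Itpr3 fell from 16.2, 17.3 and 23.1 FPKM to 5.29, 5.04 and 5.51 FPKM (log2 change -1.65, SE 0.15, adjusted p = 1.5e-06), while Itpr1 at -0.06, the store pump Atp2a2 at 0.10, the membrane pump Atp2b1 at 0.46, the channel Trpc1 at 0.20, the STIM regulator Saraf at -0.47 and the store channel Ryr3 at 0.16 were not called. Calm2, which encodes calmodulin, fell by 0.86 on the log2 scale, and the pump Atp2b4 fell by 0.63, a call that was lost with quantile normalization and without replicate 2 of either time.

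The change from 12 h to 24 h after 5 Gy was close to that after 20 Gy, which used other libraries. After 20 Gy, 6489 genes were called (36.3%), 2526 higher (14.1%) and 3963 lower (22.1%). A total of 2155 genes rose and 2669 fell at both doses, and 3 were called in opposite directions. These shared calls were 74.1% of the genes called after 5 Gy and 74.3% of those called after 20 Gy. Across genes, which are not independent replicates, the log2 changes at the doses correlated at r = 0.852. The change differed between the doses for 93 genes (0.52%), by the limma interaction term with adjusted p below 0.05 and a difference of at least 1.5-fold. In 49 of these (0.274%) the change was higher after 5 Gy, and in 44 (0.246%) it was higher after 20 Gy. The sign of the change was the same at both doses in 69 of the 93.

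**Figure D4:**
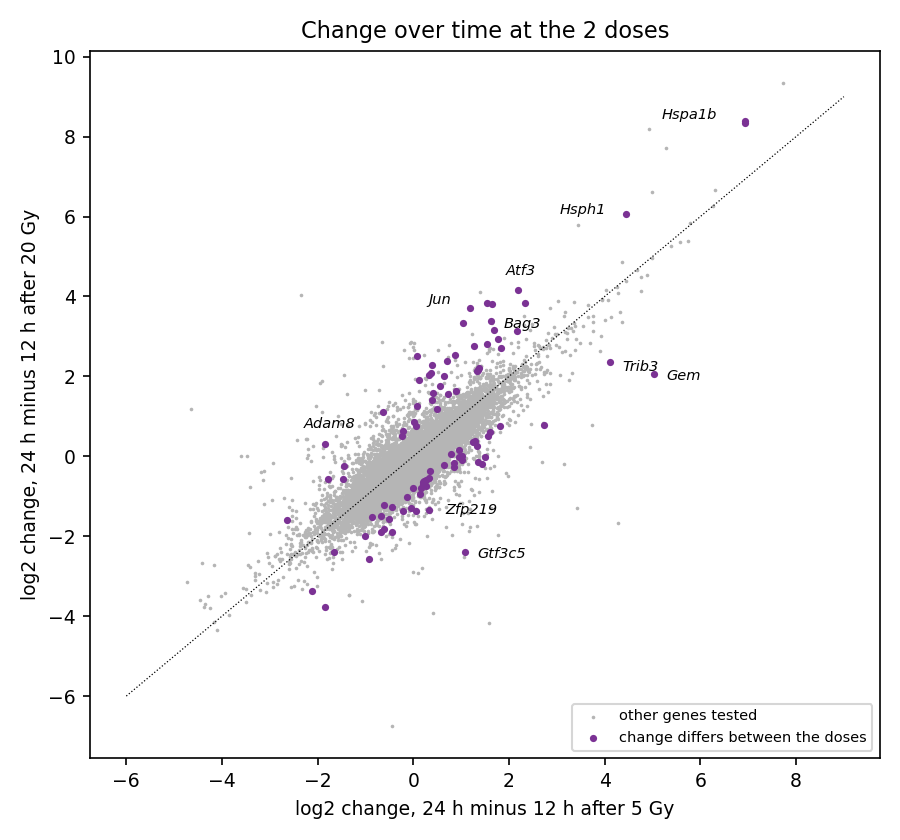
Log2 change from 12 h to 24 h after 5 Gy (horizontal) against that after 20 Gy (vertical) for each of the 17895 genes tested, with the 93 genes whose change differed between the doses in purple and equality as a dotted line. Most genes lie near the line (r = 0.852 across genes), and Jun, Atf3, Bag3 and Hspa1b lie above it, Gem and Trib3 below it.

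Of 97 genes in the 5 chaperone lists, 6 differed between the doses, and all 6 rose less after 5 Gy than after 20 Gy. Hspa1b reached 5612, 4706 and 4553 FPKM 24 h after 20 Gy, and its log2 change was 8.34 at that dose, a difference of -1.42 (SE 0.20, adjusted p = 0.0064). The difference was -1.61 for Hsph1, -1.498 for Dnajb1 (adjusted p = 0.00088) and -1.16 for Hsp90aa1 (adjusted p = 0.042). Bag3 went from 28.3, 35.1 and 36.0 FPKM to 368, 356 and 334 FPKM after 20 Gy, so all its libraries 24 h after 20 Gy were above those 24 h after 5 Gy (difference -1.75, SE 0.18, adjusted p = 0.00088). For Hspb1, with 521, 617 and 663 FPKM 24 h after 20 Gy, the difference was -2.15 (SE 0.38, adjusted p = 0.026), and this call was lost in a fit of only the groups compared. Leaving out each of the 12 irradiated libraries lost the call 8 times for Hspb1 and 10 times for Hsp90aa1, and for none of the other 4 genes. From annotated transcripts only, the difference of Hsph1 was -0.46 and was not called (limma adjusted p = 0.51).

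The stress factors Jun and Atf3 also rose less after 5 Gy. Jun went from 12.8, 9.70 and 9.06 FPKM to 189.8, 122 and 143 FPKM after 20 Gy, a log2 change of 3.72 against 1.19 after 5 Gy (difference -2.52, SE 0.22, adjusted p = 0.00035). Atf3, a repressor of the ATF family, was at 0.134, 0.056 and 0.0781 FPKM 12 h and 3.09, 5.19 and 3.90 FPKM 24 h after 5 Gy, and at 17.1, 18.7 and 18.8 FPKM 24 h after 20 Gy (difference -1.97, SE 0.18, adjusted p = 0.00051). Adam8, a membrane protease, fell after 5 Gy from 17.0, 19.3 and 31.0 FPKM to 3.75, 6.39 and 6.11 FPKM, while its log2 change after 20 Gy was 0.30 (difference -2.15, SE 0.36, adjusted p = 0.021). This call was lost in 3 of the 12 cases with 1 library left out.

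Genes with the larger rise after 5 Gy included Gem of the cAMP list and Trib3 and Chac1 of the integrated stress response. Gem reached 3.58, 3.06 and 6.75 FPKM 24 h after 20 Gy, well below its level 24 h after 5 Gy (difference 2.97, SE 0.48, adjusted p = 0.016), a call that was lost with a pseudocount of 0.1. Trib3 reached 8.17, 7.64 and 11.1 FPKM, and the difference was 1.75 (SE 0.33, adjusted p = 0.039). Chac1, with 3.06, 3.94 and 5.93 FPKM 24 h after 20 Gy, differed by 1.93 (adjusted p = 0.04), and Cars, the cysteinyl-tRNA synthetase, by 1.06 (adjusted p = 0.026). When each of the 12 irradiated libraries was left out in turn, the call for the difference was lost 9 times for Trib3 (limma adjusted p 0.0095 to 0.098), 10 times for Chac1 and 9 times for Cars, and never for Gem. Over the whole list of the integrated stress response, 3 of 19 genes differed between the doses, Trib3 and Chac1 with the larger rise after 5 Gy and Atf3 with the smaller, and the median log2 change was 1.67 after 5 Gy and 0.84 after 20 Gy. By limma, no gene of the mitosis or collagen lists was called for a difference, beside 93 of all 17895 genes (0.52%). At that share, lists of this size would hold few or no calls. An unadjusted p under 0.05 was found for 6 of 66 mitosis genes and 4 of 23 collagens, beside 2305 of all 17895 genes. The median of the collagens was -0.94 after 5 Gy and -1.64 after 20 Gy. Gtf3c5, a subunit of a polymerase III factor, was at 1.06, 8.89 and 7.20 FPKM 12 h and 10.9, 9.68 and 11.5 FPKM 24 h after 5 Gy, and changed by -2.39 after 20 Gy (difference 3.48, SE 0.65, adjusted p = 0.039). Zfp219, a zinc finger gene, and Gpr153, an orphan receptor, were not called after 5 Gy (0.32 and 0.06) and changed by -1.35 and -1.37 after 20 Gy. Only 0.444% of the sum of Zfp219 came from annotated transcripts. Leaving out 1 library lost the call for the difference 8 times of 12 for Gtf3c5 and 9 times for Gpr153.

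**Figure D5:**
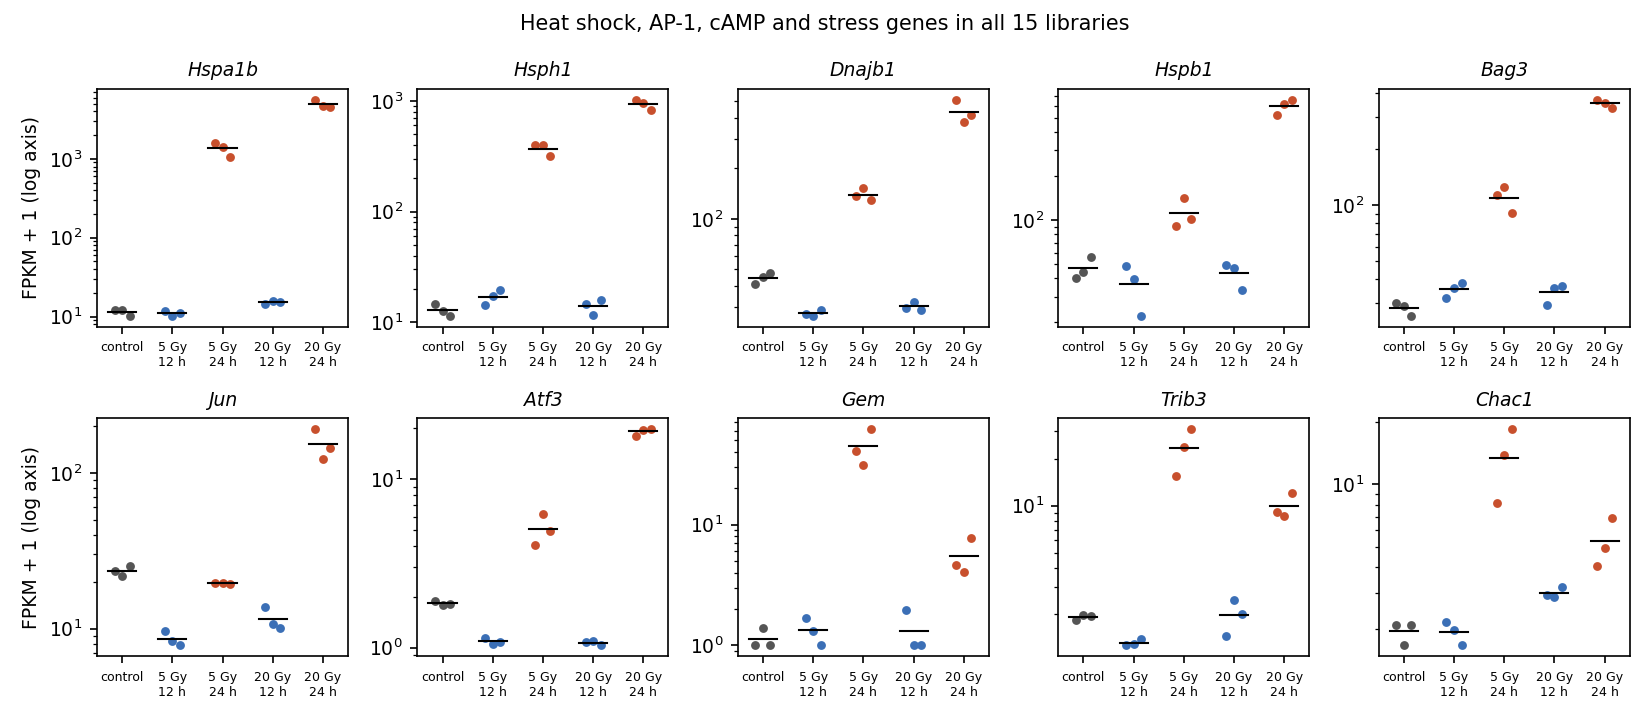
FPKM + 1 (log axis) of 10 genes in all 15 libraries, grouped as control, 12 h and 24 h after 5 Gy and 12 h and 24 h after 20 Gy, with each point 1 library and the group mean as a line. Hspa1b, Hsph1, Dnajb1, Hspb1, Bag3, Jun and Atf3 were highest 24 h after 20 Gy, and Gem, Trib3 and Chac1 24 h after 5 Gy.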

How the data were processed

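Poly-A RNA of cultured rat BMECs was sequenced in 15 libraries, 3 in each of 5 groups. Per the submitters' processing notes and the methods, the authors trimmed reads with Trimmomatic, checked them with FastQC, mapped them to Rnor_6.0 (rn6) with HISAT2 2.0.13, assembled transcripts with StringTie and deposited FPKM values per transcript. The notes also name kallisto and a tool for counts, but no counts were used here. In all, 85322 transcripts were listed, in 40272 loci and under 28906 gene names.

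FPKM were summed per gene name, and transcripts without a name were summed with their locus. The 4738 unnamed transcripts of the 909 loci with several names were left out. Genes with a mean of at least 0.5 FPKM across all 15 libraries entered the test on log2(FPKM + 1), a scale that understates the change of low genes. The test was limma 3.58.1 in R 4.3.3 (two-sided) with a mean for each group, an intensity-dependent variance prior and 10 residual degrees of freedom, and the doses were compared by an interaction term. A permutation of 3 libraries against 3 cannot give an exact p below 0.1. The pipeline was tested on simulated data. Depth limits low values, and intervals were not computed because FPKM are not counts.

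The members and gene lists were chosen with earlier results of these data known. Named genes were the 15 largest rises and falls with a symbol, at least 5 FPKM and no overlap, up to 4 called or defining members per list, the 5 largest dose differences each way, and the calcium genes. Names of clones, microRNAs and unnamed loci (LOC, RGD and the like) did not count as symbols. Further members outside this rule, such as Egr1, Fosl1, Batf, Dusp6, Pde4b, Cdkn1a, Bax, Mdm2, Ddit3, Atf4, Nupr1, Fkbp5, Jund, Col4a1, Srebf2, Nfkbia and Hspa5, were chosen after their values were seen. Promoter windows were taken from RefSeq (GRCr8) and matched by symbol for 8977 of 13081 named genes. The alternatives were other pseudocounts, filters, scalings, fits, thresholds and gene values, the replicate number as a block, and each library left out.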

Additional observations from a re-analysis of the deposited data

Results flagged for a closer look

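The change from 12 h to 24 h differed between 5 Gy and 20 Gy (limma interaction term) for 93 genes, of which the following had the largest differences in each direction among genes with a symbol and a mean of at least 5 FPKM over the 12 irradiated libraries. The change was higher after 5 Gy by 3.48 on the log2 scale for Gtf3c5, 2.97 for Gem, 1.75 for Trib3, 1.67 for Zfp219 and 1.43 for Gpr153. It was lower after 5 Gy for Jun, with a difference of -2.52, for Hspb1 and Adam8 (-2.15 each), for Atf3 (-1.97) and for Bag3 (-1.75). The differences of Jun, Atf3 and Bag3 were called under every alternative run. Those of the other 7 genes lost the call under at least 1 alternative, and for Gtf3c5 the lone value of 1.06 FPKM in replicate 1 at 12 h after 5 Gy stood against 8.89 and 7.20 FPKM.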

How the results depend on the processing

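The count of 6508 genes changed after 5 Gy (3056 higher, 3452 lower) moved by over 1.5 times under 2 settings. It was 2919 (1274 higher, 1645 lower) from annotated transcripts only, a setting chosen after seeing the data in which fewer genes were tested, and 2834 (1445 and 1389) at a fold of at least 2. Leaving out each library gave 6253 to 6568 genes (2977 to 3079 higher, 3219 to 3489 lower). Rescaling to the same sum gave 3516 higher and 2982 lower, and moved the median log2 change of all genes from -0.08 to -0.0028. The count of 93 genes that differed between the doses was 27 from annotated transcripts only, 57 at a fold of at least 2, 48 with named genes only, 47 in a fit of only the groups compared, 163 after rescaling to the same sum and 1047 at an unadjusted p. Leaving out each library gave 44 to 229 genes. It was 44, 48 and 56 without 20 Gy 12 h replicates 1, 2 and 3, 50 and 59 without 5 Gy 12 h replicates 2 and 3, and 229 without 20 Gy 24 h replicate 3, and the cause was not tested. The replicate numbers did not pair the libraries (correlations of deviations -0.12, 0.04 and -0.10), and with the replicate block 6475 genes were called (3051 higher, 3424 lower) and 69 differed between the doses. Of 250 results on single genes, 150 kept direction and side of the threshold under every alternative run. With annotated transcripts only, the log2 change turned to -0.27 for Cdt1, -0.24 for Dnaja4, 0.70 for Flna, 0.41 for Hmga2, -0.27 for Xrcc4 and -1.30 for Zfand5. The difference between the doses turned to 0.086 for Zfand2a. With the transcript of the highest mean, the log2 change turned to 0.41 for Hmga2, 0.57 for Hmgb3, -0.029 for Hspa1l, -0.047 for Nop2 and -0.40 for Panx1. Of 2432 counts for the lists under the alternatives, 104 moved, 41 of them at a fold of at least 2. The spread of 3 libraries and the depth limit calls among genes of low FPKM.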

Other observations

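Lists not described above were divided or held few calls. Of 14 G1 cyclins and CDK inhibitors, 1 rose and 5 fell (median log2 change -0.51). Ccnd3, a D-type cyclin, was at 372, 331 and 314 FPKM at 12 h and 177, 156 and 162 FPKM at 24 h, without overlap (log2 change -1.03, SE 0.10), and the inhibitor Cdkn2c fell by 1.87 on the log2 scale. Of 10 nuclear lamina and HMG genes, 2 rose and 4 fell (median -0.18). By the transcript with the highest mean 1 of 10 fell, after rescaling to the same sum 2 of 10, and from annotated transcripts only 2 of 8. Hmgb2, a chromatin protein abundant in dividing cells, was at 32.7, 36.1 and 25.7 FPKM at 12 h and 64.7, 72.3 and 68.9 FPKM at 24 h (log2 change 1.11, SE 0.18), a rise at the time when 51 of 66 mitosis genes were lower. Of 15 genes of MHC class I and antigen processing, 1 rose and 3 fell, and the riser was the peptide transporter Tap1, at 1.86 (SE 0.19). The adjusted p from limma was below 0.05 for each gene named as changed here.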
